A study of Homo sapiens with 12 samples.

Results

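The leukocyte immunoglobulin-like receptors of the myeloid surface were followed through RNA sequencing of OCI-AML3 cells, a human line established from acute myeloid leukaemia and carrying an NPM1 mutation. The 9 genes were chosen by name, with earlier results of these data known. All 9 were found among the 26259 genes of the table. They are the activating receptors LILRA1, LILRA2, LILRA5 and LILRA6, the inhibitory receptors LILRB1, LILRB2, LILRB3 and LILRB4, and the related collagen receptor LAIR1. In all, 4 groups of 3 libraries were compared, all of poly(A)-selected RNA. Unedited parental cells (wt) were set beside a CD33-edited clone (CD33 KO cells), a CD123-edited clone (CD123 KO cells) and a doubly edited clone (CD33/CD123 KO, here double-KO cells). CD33 is an inhibitory receptor that binds sialic acid on myeloid cells. IL3RA encodes CD123, which binds interleukin-3 as the alpha subunit of its receptor. The edited cells were made by electroporation of Cas9 protein with a guide RNA, enriched by magnetic and flow sorting and grown from single cells. Each genotype is therefore 1 clone set against uncloned parental cells, so genotype and clone cannot be told apart. Nothing in the labels says that the triplicates are separate cultures, so p-values measure the spread between these libraries alone, which may be technical.

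LILRs and LAIR1 are encoded side by side in the leukocyte receptor complex. The inhibitory LILRBs and LAIR1 carry cytoplasmic tyrosine motifs (ITIMs) that recruit the phosphatases SHP-1 and SHP-2, whereas the activating LILRAs have short tails and signal through the adaptor FcR gamma, encoded by FCER1G. Monocytes carry many of them, with HLA class I molecules among their ligands, and LILRB4 and LAIR1 are studied as surface targets in monocytic leukaemia.

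Total counts ran from 15583315 to 61827969 per library, so that 3 counts were worth 0.0504 to 0.187 CPM (counts scaled to the TMM-adjusted depth of a library). The line carried myeloid markers in all 4 groups, with MPO, ANPEP, SPI1, CSF3R and CD33 above 1 CPM and KIT at or near 0. Of the T cell markers CD3D, CD3E and CD2 had no count in any library, and of the NK cell markers only NCAM1 exceeded 1 CPM. No gene of the B cell or erythroid marker lists reached a group mean of 1 CPM. The edited genes kept transcripts: CD33 stood at 50.4 ± 1.56 CPM in wt, 39.9 ± 1.40 in CD33 KO cells and 45.7 ± 4.47 in double-KO cells (mean ± SD, n = 3). IL3RA stood at 7.54 ± 1.49 CPM in wt, 3.52 ± 0.604 in CD123 KO cells and 7.64 ± 1.56 in double-KO cells, and at 4.79 ± 0.810 in CD33 KO cells, where it was not edited (mean ± SD, n = 3). IL3RA transcript was thus lower in CD33 KO cells (log2 -0.70, edgeR adjusted p = 0.00109) and at the wt level in double-KO cells (log2 -0.01, 95% interval -0.37 to 0.35), an order that does not follow the labels. Neither gene was called against wt. Small edits need not lower a transcript, and these levels do not check the labels.

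The 9 genes lie on hg19 chromosome 19, about 3 Mb beyond the edited gene CD33 towards the chromosome end. LILRB3 (54720147 to 54746711), LILRA6 (54740468 to 54746617), LILRB2 (54777675 to 54785033), LILRA5 (54818353 to 54824409) and LAIR1 (54865233 to 54882163) are on the minus strand. LILRA2 (55084464 to 55099028), LILRA1 (55105041 to 55113846), LILRB1 (55128384 to 55148981) and LILRB4 (55174271 to 55181810) follow on the plus strand. LILRB2 starts 3034 kb and LILRB4 3431 kb beyond the end of CD33.

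The sequence before the gene start is shown for LILRA1, LILRB1, LILRA2 and LILRB2, because these 4 members had the largest changes and their upstream sequences are paired by similarity. The stretches are the part of the 250 bases before the first listed RefSeq start of each gene (GRCh38.p14) that lies outside annotated exons, written 5′ to 3′ on the gene's strand. Capitals mark a run that both stretches of a pair share: for LILRA2 with LILRB2 the longest, of 42 bases, and for LILRA1 with LILRB1 the first of 2 equally long ones, of 37 bases each, the other standing further on in lower case.
LILRA1, chr19:54593382-54593581, plus strand: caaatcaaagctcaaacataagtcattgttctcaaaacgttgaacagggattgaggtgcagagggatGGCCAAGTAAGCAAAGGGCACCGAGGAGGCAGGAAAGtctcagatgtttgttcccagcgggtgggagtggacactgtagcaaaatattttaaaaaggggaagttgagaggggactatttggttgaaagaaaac
LILRB1, chr19:54630267-54630409, plus strand: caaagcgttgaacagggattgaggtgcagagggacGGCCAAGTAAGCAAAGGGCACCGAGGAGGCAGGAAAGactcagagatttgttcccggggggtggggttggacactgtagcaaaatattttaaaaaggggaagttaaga
LILRA2, chr19:54573540-54573697, plus strand: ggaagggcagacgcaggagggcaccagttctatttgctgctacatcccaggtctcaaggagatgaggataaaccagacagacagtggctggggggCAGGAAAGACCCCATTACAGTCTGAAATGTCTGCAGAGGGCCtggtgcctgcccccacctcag
LILRB2, chr19:54280629-54280803, minus strand: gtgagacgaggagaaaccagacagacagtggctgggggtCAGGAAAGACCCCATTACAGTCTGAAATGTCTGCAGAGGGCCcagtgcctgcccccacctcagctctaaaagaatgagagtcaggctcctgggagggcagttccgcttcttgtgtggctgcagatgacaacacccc
Over the full 250 bases, an alignment with gaps gave 73.1% identity for LILRA1 with LILRB1 and 75.6% for LILRA2 with LILRB2, against 45.8% for LILRA1 with LILRA2 and 47.2% for LILRB1 with LILRB2. Such likeness was not particular to these 4 members. LILRB3 with LILRB4 gave 72%, and LILRA5 gave 64.6% with LILRA1 and 58% with LILRB1. LILRB4 was not called in any comparison, and LILRB3 and LILRA5 were not tested. The letters GAGGAA, the core of sites of the myeloid factor PU.1, and TTGCNNAA (N any base), the form of C/EBP sites, were searched on both strands of these 250 bases. Of 35116 RefSeq windows of that length, 23.6% held GAGGAA and 9.05% held TTGCNNAA. Neither was found before LILRA1, LILRA2, LILRB1 or LILRB2. GAGGAA was present once each before LILRB4, LAIR1, LILRB3 and LILRA5, starting 236, 17, 115 and 18 bases before the start, and TTGCNNAA once before LILRA5. The table of promoters matched 8 of the 9 members and held several starts for some of them. A match is a description of these letters, not evidence of binding.

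Levels of different genes were compared per length, as RPKM (CPM per kilobase of summed exon length). In wt, LAIR1 was the most abundant member at 43.5 ± 0.861 RPKM, followed by LILRB4 at 33.4 ± 0.500 and LILRA2 at 12.7 ± 0.425 (mean ± SD, n = 3). LILRA1 at 1.02 ± 0.0402 and LILRB1 at 0.942 ± 0.0916 RPKM came next (mean ± SD, n = 3), and their libraries overlapped. LILRB2 stood at 0.284 ± 0.0290 RPKM (mean ± SD, n = 3), and LILRA6, LILRB3 and LILRA5 at 0.0682, 0.0494 and 0.0283. The line's receptor RNA was thus mostly that of 2 inhibitory receptors. LAIR1 and LILRB4 together made up 83.4 to 83.9% of the 9 genes' summed RPKM in the wt libraries and 92.4 to 93.8% in the libraries of CD33 KO and double-KO cells.

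**Figure D1:**
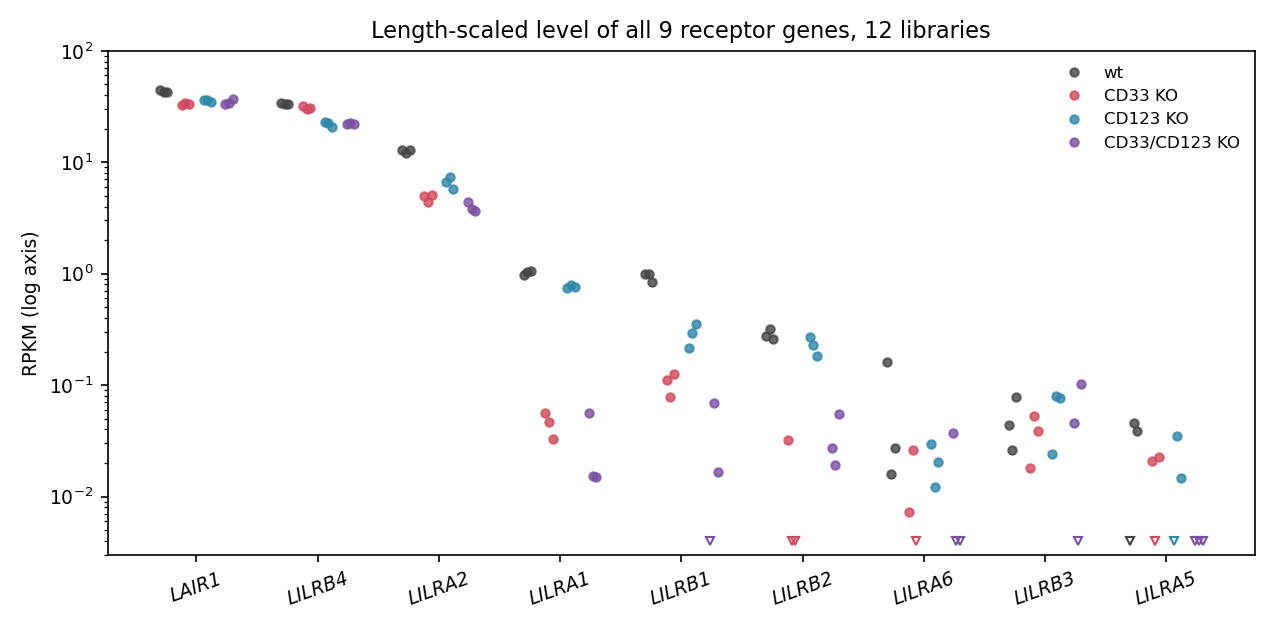
RPKM of each of the 9 receptor genes (horizontal axis, ordered by wt mean) in each of the 12 libraries, coloured by group, on a log axis. Open triangles at the bottom mark libraries without a count, which a log axis cannot show. LAIR1 and LILRB4 lie between 20.8 and 44.5 RPKM in every library, and LILRA6, LILRB3 and LILRA5 near the counting limit.

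Of the 9 genes, 6 passed the low-count filter and were tested, among 14010 genes in all, with edgeR's quasi-likelihood test. Calls needed a Benjamini-Hochberg adjusted p below 0.05 together with a log2 fold change beyond 1.5 in either direction. In CD33 KO cells LILRA1, LILRB1 and LILRB2 fell, 3 of the 9 genes, and 0 rose. Of all tested genes 8.45% were called there, 6.5% lower and 1.96% higher. In CD123 KO cells LILRB1 fell, 1 of the 9 genes, and 0 rose, where 5.35% of all tested genes were called, 2.73% lower and 2.62% higher. In double-KO cells LILRA2, LILRA1, LILRB1 and LILRB2 fell, 4 of the 9 genes, and 0 rose, where 9.21% were called, 7.36% lower and 1.86% higher. By the adjusted p alone, 6 members were lower in CD33 KO cells and 0 higher, against 63.1% of all tested genes (32.5% lower, 30.6% higher). In CD123 KO cells 5 were lower and 0 higher, against 59.5% (29.9% lower, 29.6% higher), and in double-KO cells 6 and 0, against 58.6% (29.8% lower, 28.8% higher). LILRA1, LILRB1 and LILRB2 passed the filter through the groups in which they were high. Their difference from the groups in which they were low was thus largely fixed in advance. These counts, and the p-values of these 3 genes below, are a description. The 3 comparisons share the wt libraries. Between the clones, 1 member was lower in double-KO than in CD33 KO cells (1.83% of all tested genes were), 3 in double-KO than in CD123 KO cells (6.7%) and 2 in CD33 KO than in CD123 KO cells (6.14%).

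**Figure D2:**
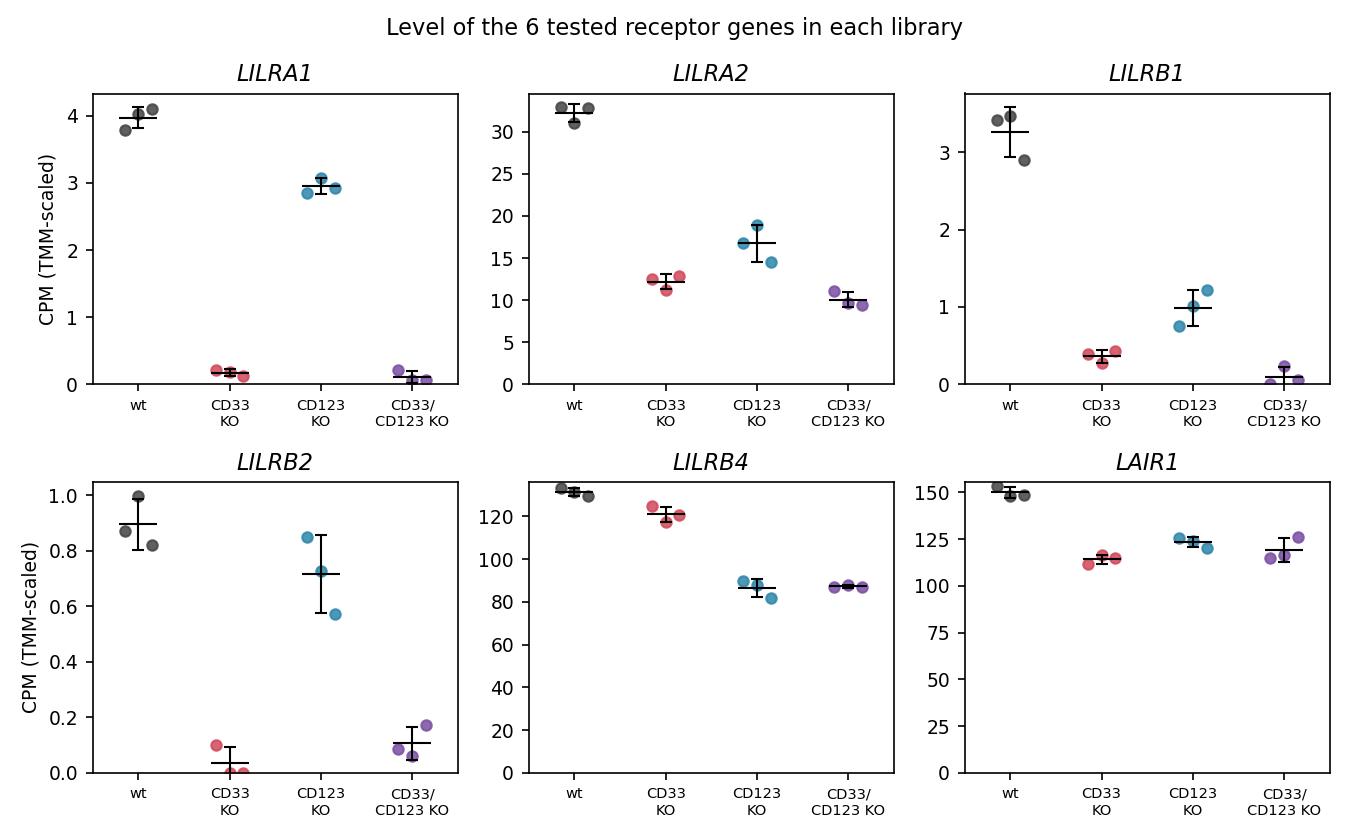
CPM of the 6 tested genes in each library (points) with the group mean and SD (bars), each panel with its own axis from 0. LILRA1 and LILRB2 are near 0 in both clones with CD33 edited, LILRB4 is lower in both clones with CD123 edited, and LAIR1 lies between 112 and 126 CPM in all 3 clones.

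LILRA1 encodes an activating receptor that pairs with FcR gamma. It stood at 3.80, 4.02 and 4.10 CPM in the wt libraries and at 2.86, 3.08 and 2.93 in those of CD123 KO cells. The libraries of CD33 KO cells held 0.218, 0.180 and 0.127 CPM, and the double-KO libraries 0.217, 0.0599 and 0.0578. Every library with CD33 edited was thus below every library without, and no clone overlapped wt. The log2 change from wt was -4.48 (SE 0.23, edgeR adjusted p = 6.84e-15) in CD33 KO cells and -4.99 (SE 0.32, edgeR adjusted p = 4.70e-13) in double-KO cells. The latter group held 7 counts in all, 5 of them in library 1, and without that library the value was -6.01. In CD123 KO cells it was -0.43 (SE 0.16, edgeR adjusted p = 0.0243), and that adjusted p rose to between 0.0549 and 0.0777 when wt library 2 or 3 or CD123 KO library 1 or 3 was left out. The clones with and without CD33 editing were also compared directly. LILRA1 was lower in CD33 KO than in CD123 KO cells by -4.05 on the log2 scale (edgeR adjusted p = 1.39e-13), and the difference of double-KO from CD33 KO cells, -0.51 with a 95% interval of -1.61 to 0.59, did not pass (edgeR adjusted p = 0.562).

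LILRB2, an inhibitory receptor for HLA class I and angiopoietin-like proteins, was a low-level gene in this line with a like distribution. It stood at 0.871, 0.997 and 0.819 CPM in wt and at 0.850, 0.728 and 0.572 in CD123 KO cells, ranges that overlap. In CD33 KO cells all 6 counts came from library 1 (0.101 CPM), and libraries 2 and 3 had none. The double-KO libraries held 2, 1 and 3 counts (0.0866, 0.0599 and 0.173 CPM), each at or under the level of 3 counts. The log2 change from wt was -4.38 (SE 0.53, edgeR adjusted p = 7.51e-08) in CD33 KO cells and -3.07 (SE 0.58, edgeR adjusted p = 5.98e-05) in double-KO cells. In CD123 KO cells it was -0.36, with a 95% interval of -1.07 to 0.35 (edgeR adjusted p = 0.38). Leaving out CD33 KO library 1 leaves that clone without a count, so that the fitted -7.88 is no bound, and leaving out its library 3 gave -3.76. LILRB2 was also called lower in CD33 KO and double-KO cells than in CD123 KO cells (log2 -4.02 and -2.71, edgeR adjusted p = 6.00e-07 and 0.000389).

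LILRB1, the broadly expressed inhibitory receptor for HLA class I, fell in every clone, but to different levels. The wt libraries held 3.42, 3.47 and 2.90 CPM, the CD123 KO libraries 0.748, 1.01 and 1.21, the CD33 KO libraries 0.386, 0.270 and 0.434, and the double-KO libraries 0 in the first, 0.240 in the second and 0.0578 in the last. The 4 groups did not overlap. Against wt the log2 fold change was -1.69 (SE 0.24, edgeR adjusted p = 1.46e-06) in CD123 KO cells and -3.11 (SE 0.27, edgeR adjusted p = 1.46e-10) in CD33 KO cells. In double-KO cells it was -5.16 (SE 0.44, edgeR adjusted p = 1.27e-10), on 5 counts, and -4.44 and -6.86 without library 1 and library 2 of that clone. The neighbours in this order were tested directly. From CD123 KO to CD33 KO cells the log2 difference was -1.42 (edgeR adjusted p = 0.000233), under the fold threshold, and from CD33 KO to double-KO cells it was -2.05 (edgeR adjusted p = 0.0126), past both thresholds. The second of these was not called without double-KO library 1 (-1.34, edgeR adjusted p = 0.12) and was not tested in a fit of these 2 groups alone, where it missed the filter. It was -3.75 without double-KO library 2. The first difference was called with library-size scaling (-1.503) and without CD33 KO library 3 or CD123 KO library 1.

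LILRA2, an activating receptor that senses immunoglobulins cut by microbial proteases, was the only activating member at a substantial level. It stood at 32.99, 31.0 and 32.8 CPM in wt, 16.8, 18.9 and 14.5 in CD123 KO cells, 12.5, 11.2 and 12.9 in CD33 KO cells and 11.1, 9.71 and 9.36 in double-KO cells. No 2 groups overlapped. The log2 change from wt was -0.95 (SE 0.08, edgeR adjusted p = 3.56e-10), -1.39 (SE 0.08, edgeR adjusted p = 1.03e-13) and -1.67 (SE 0.09, edgeR adjusted p = 2.71e-14) in these clones in turn, of which the last was called. With library-size scaling in place of TMM the CD33 KO value was -1.51 and was called. The difference between double-KO and CD33 KO cells was -0.28 (edgeR adjusted p = 0.0316), and that adjusted p rose above 0.05 without CD33 KO library 1 or 3 or double-KO library 2 or 3, up to 0.111, and was 0.0937 with limma-voom. LILRA2 was lower in CD33 KO than in CD123 KO cells by -0.45 (edgeR adjusted p = 6.09e-05). With LILRA2, the activating members' share of the 9 genes' summed RPKM was lower in the clones: 15.0 ± 0.375% in wt, 11.2 ± 1.02% in CD123 KO cells, 7.06 ± 0.436% in CD33 KO cells and 6.57 ± 0.787% in double-KO cells (mean ± SD, n = 3).

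LILRB4, an inhibitory receptor of monocytic cells that binds apolipoprotein E and fibronectin, was the second most abundant member in every group. It stood at 133, 131 and 130 CPM in wt and 125, 117 and 120 in CD33 KO cells, close to each other but without overlap. Both clones with CD123 edited were lower, at 89.7, 87.8 and 81.8 CPM in CD123 KO cells and 87.0, 88.0 and 86.8 in double-KO cells. The log2 change from wt was -0.60 (SE 0.04, edgeR adjusted p = 1.80e-12) and -0.59 (SE 0.04, edgeR adjusted p = 3.21e-12) in these clones, neither past the fold threshold. In CD33 KO cells it was -0.12 (SE 0.04, edgeR adjusted p = 0.0105), and the adjusted p rose to 0.0706 without CD33 KO library 2. LILRB4 was lower in double-KO than in CD33 KO cells by -0.47 (edgeR adjusted p = 8.94e-10) and higher in CD33 KO than in CD123 KO cells by 0.49 (edgeR adjusted p = 7.32e-11). Between the clones with CD123 edited the difference was 0.01, with a 95% interval of -0.07 to 0.10 (edgeR adjusted p = 0.791). The order of LILRB4 over the groups thus differed from that of LILRA1 and LILRB2, which were lowest in both clones with CD33 edited.

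LAIR1, an inhibitory receptor for collagen and the complement component C1q, had the narrowest range of group means of the 6 tested members, although in CD33 KO cells LILRB4 changed less. It stood at 153, 148 and 148 CPM in wt, 112, 116 and 115 in CD33 KO cells, 126, 124 and 120 in CD123 KO cells and 115, 116 and 126 in double-KO cells. All 9 edited libraries were below all 3 wt libraries. The log2 change from wt was -0.39, -0.28 and -0.33 (SE 0.04 each, edgeR adjusted p = 2.68e-09, 1.14e-06 and 1.13e-07), and none was called. Between CD123 KO and CD33 KO cells the log2 difference was -0.11 (edgeR adjusted p = 0.0159), an adjusted p that rose above 0.05 without CD33 KO library 1, without CD123 KO library 1 or without a low-count filter. For double-KO cells the differences from CD33 KO and CD123 KO cells did not pass (0.06, 95% interval -0.02 to 0.15, edgeR adjusted p = 0.282, and -0.05, -0.13 to 0.03, edgeR adjusted p = 0.299). Within a library the RPKM of LILRB4 was 0.763 to 0.776 of that of LAIR1 in wt, 0.886 to 0.981 in CD33 KO cells, 0.596 to 0.626 in CD123 KO cells and 0.602 to 0.664 in double-KO cells.

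**Figure D3:**
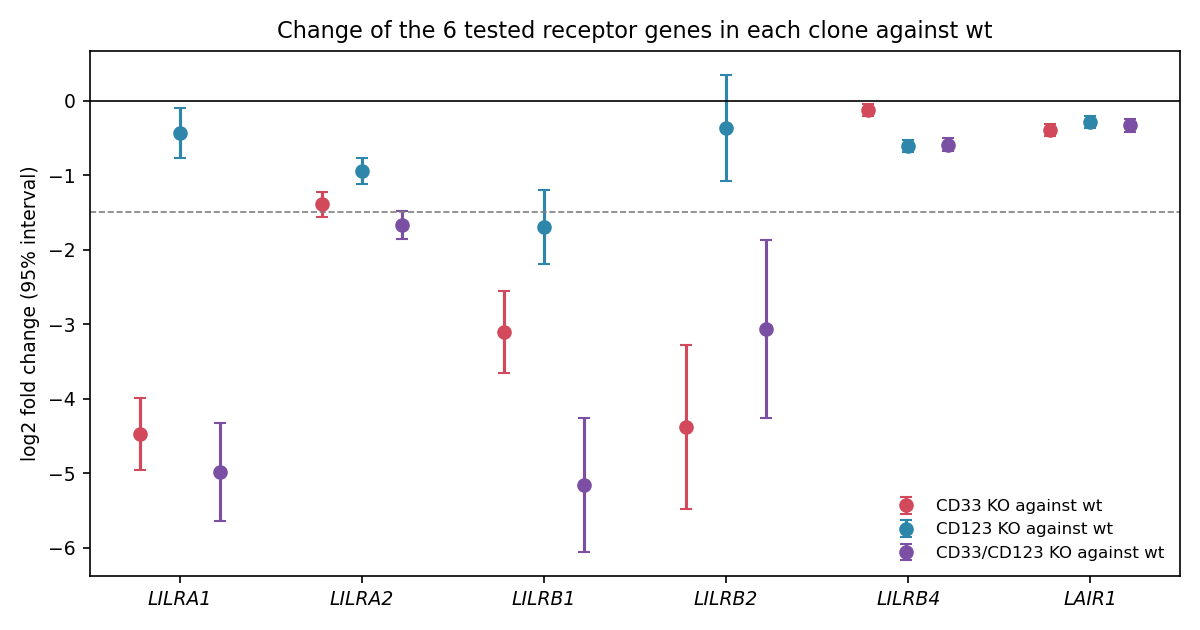
Log2 fold change of the 6 tested genes in each clone against wt (points, coloured by clone) with 95% intervals from the edgeR fit, and the fold threshold of -1.5 as a dashed line. LILRA1, LILRB1 and LILRB2 lie between -5.16 and -3.07 in both clones with CD33 edited, and LILRB4 and LAIR1 between -0.60 and -0.12 in all clones.

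The small changes were checked against scaling. Library-size scaling shifted the median of all genes by -0.12 in CD33 KO and -0.11 in double-KO cells against wt, as large as the LILRB4 value of CD33 KO cells. Under that scaling LILRB4 stood at -0.23 and LAIR1 at -0.51 there. All 6 tested genes kept a negative sign against wt in each clone under every alternative in which they were tested, which for LILRB2 leaves out the filter of 1 CPM in 3 libraries.

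The low members were near the limit of counting. LILRB3, an inhibitory receptor of granulocytes and monocytes, had 13, 14, 19 and 8 counts over the wt, CD33 KO, CD123 KO and double-KO libraries. That is 0.127 CPM in wt (95% exact Poisson interval 0.0679 to 0.218), 0.0945 (0.0517 to 0.159), 0.177 (0.107 to 0.277) and 0.140 CPM (0.0605 to 0.276), and these intervals overlap. LILRA6, whose extracellular part is nearly that of LILRB3, had 10, 3, 5 and 2 counts, with 6 of the wt counts in library 1. That is 0.0981 CPM in wt (95% exact Poisson interval 0.0470 to 0.180) and 0.0203 (0.00418 to 0.0592), 0.0467 (0.0152 to 0.109) and 0.0350 CPM (0.00424 to 0.127) in CD33 KO, CD123 KO and double-KO cells. LILRA5, an activating receptor of monocytes and neutrophils, had 6, 4 and 3 counts in wt, CD33 KO and CD123 KO cells and 0 in double-KO cells, where 3 counts over the group would be 0.0526 CPM. Differences of these 3 genes between groups were not tested, and the intervals cover counting error only. The relatives LILRA3, LILRA4, LILRB5, LAIR2 and the pseudogene LILRP2 were under the filter too, with at most 20 counts in a group.

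Reads of LILR genes can be shared. In the table's gene models LILRA6 and LILRB3 have 1314 exon bases in common, out of summed exon lengths of 2315 and 2825, and the other members share no exon base with another gene. No source used here says how reads in shared bases were counted, so the levels of LILRA6 and LILRB3 are uncertain. Among runs of 50 bases of the longest coding transcript in GENCODE 29, 35% of those of LILRA6 and 29.4% of those of LILRB3 also occur in a transcript of another gene. The share was 23% for LILRA2 (18.2% in the annotated gene AC245036.5 alone), 18.2% for LILRB1, 11.9% for LILRB2, 4.59% for LILRA1, 4.26% for LILRA5, 2.78% for LAIR1 and 1.14% for LILRB4. The most frequent partner was LILRB2 for LILRB1 and LILRB1 for LILRB2, at 10.6% and 9.32% of their runs. With runs of 100 bases the shares for LILRB1 and LILRB2 were 3.08% and 3.17%.

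Other genes of the complex were mostly near their wt level. Between 300 kb before the first and 300 kb after the last of the 9 genes, 16 other genes were tested, and their median log2 fold change was -0.07, 0.09 and -0.09 in CD33 KO, CD123 KO and double-KO cells. LAIR1 and LILRB4, which were not called, lie on either side of LILRA2, LILRA1 and LILRB1. Of the 16, KIR3DX1, a gene of the killer immunoglobulin-like receptor family that lies between LAIR1 and LILRA2 (hg19 chromosome 19, 55043909 to 55057024), fell in every clone. It was singled out after its values were seen, and went from 8.99 ± 0.0243 CPM in wt to 0.205 ± 0.121, 0.589 ± 0.0269 and 0.639 ± 0.153 in CD33 KO, CD123 KO and double-KO cells (mean ± SD, n = 3). The other call among them was TTYH1, a membrane protein gene, which rose in CD123 KO cells (log2 2.15). Of 27 genes of the complex listed as neighbours, 18 were tested. None was called in CD33 KO or double-KO cells (11 and 6 passed the adjusted p alone by edgeR), and TTYH1 was the one called in CD123 KO cells. Of all tested genes 63.1% and 58.6% passed the adjusted p alone in CD33 KO and double-KO cells. The shares called were 8.45%, 5.35% and 9.21% in CD33 KO, CD123 KO and double-KO cells. FCAR, the IgA receptor beyond LILRB4, stood at log2 0.31, 1.04 and 0.14.

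**Figure D4:**
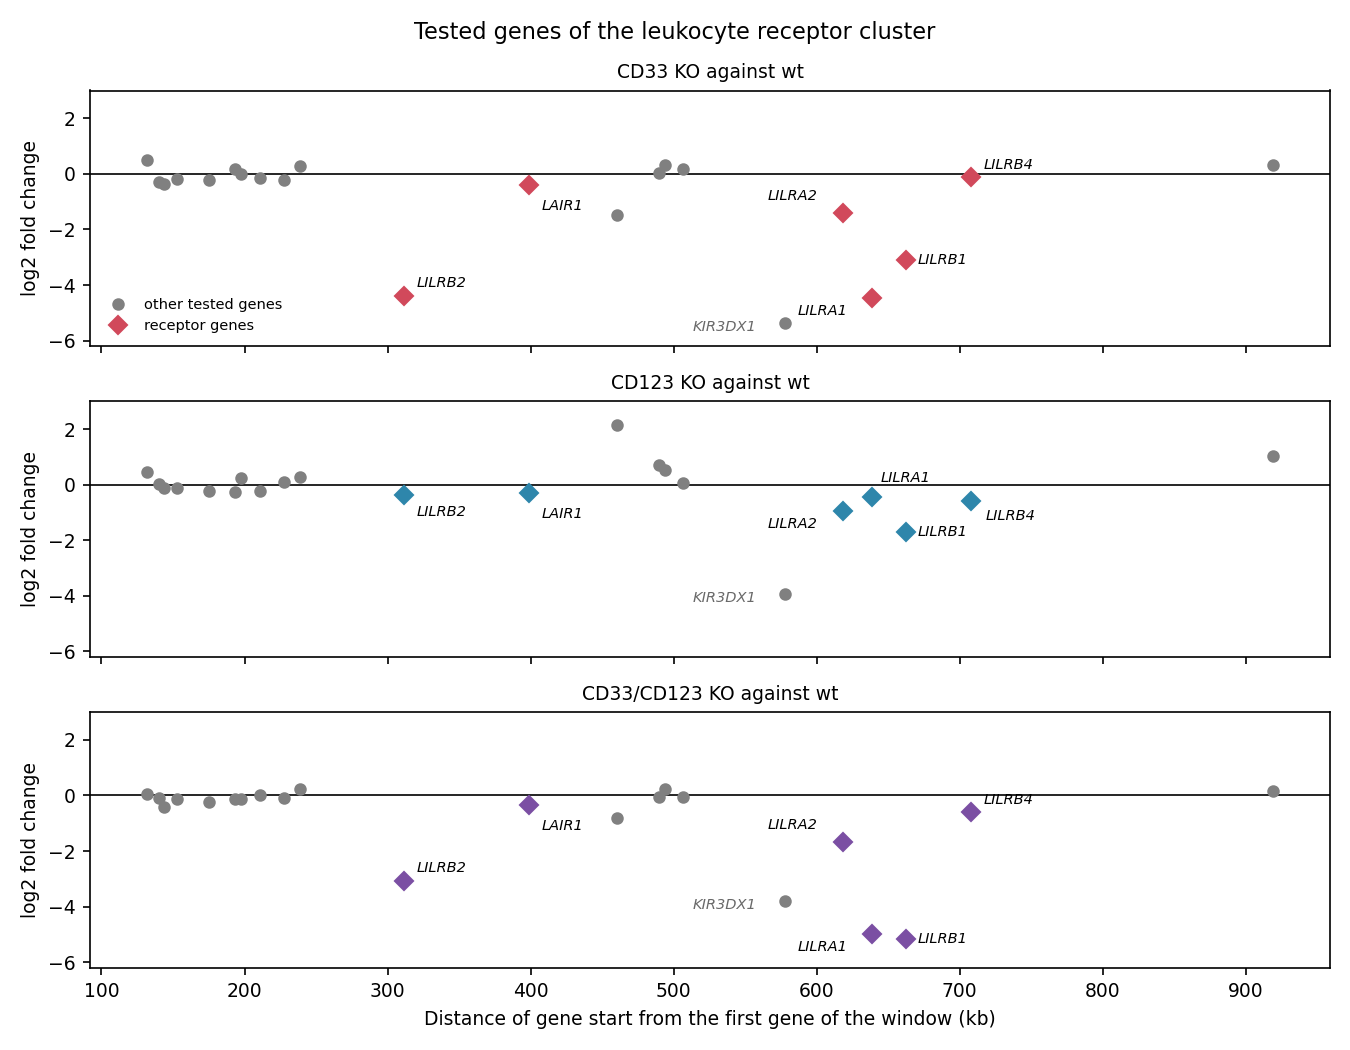
Log2 fold change against wt (vertical axis) of the tested genes of the complex by distance of their start from the first gene of the window (horizontal axis, kb), 1 panel per clone. Receptor genes are coloured diamonds and other genes grey points. LILRB2, LILRA1 and LILRB1 lie below -3 in both clones with CD33 edited while the genes between LAIR1 and KIR3DX1 and LAIR1 itself lie above -1.5.

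Genes of known ligands were followed next. Of 17 listed, 10 were tested. In CD33 KO cells 4 rose and 2 fell (median log2 1.06, against -0.02 over all tested genes), in CD123 KO cells 1 rose and 1 fell (0.65 against 0.01), and in double-KO cells 0 rose and 2 fell (0.03 against -0.01). Of all tested genes 1.96%, 2.62% and 1.86% rose and 6.5%, 2.73% and 7.36% fell in these clones in turn. HLA-C and HLA-B, classical class I heavy chains bound by LILRB1 and LILRB2, rose by 1.77 and 1.66 on the log2 scale in CD33 KO cells, where both receptors fell, and HLA-F by 3.02. HLA class I genes resemble one another closely, so their counts are uncertain. Fibronectin, FN1, fell from 52.1 ± 5.62 CPM in wt to 8.00 ± 0.628 in CD33 KO and 12.9 ± 1.31 in double-KO cells and stood at 19.9 ± 2.66 in CD123 KO cells (mean ± SD, n = 3). APOE rose from 0.301 ± 0.0210 to 1.42 ± 0.193 CPM in CD123 KO cells (mean ± SD, n = 3). Of the collagen genes, COL4A1 rose in CD33 KO cells (log2 1.73), and COL1A2, with 47 counts over the wt libraries, was called lower in every clone and was the lowest of the list in double-KO cells, with 13, 10 and 0 counts in CD33 KO, CD123 KO and double-KO cells. HLA-G and ANGPTL2, ligands of LILRB2, had no count in any library, which allows up to 0.187 CPM where 3 counts weigh most.

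Most inhibitory effectors changed by less than the fold threshold. Of 13 tested effector genes 0 rose in any clone, and CAMK4, a calmodulin-dependent kinase, was the only one called, lower in CD33 KO cells (log2 -2.03). In CD123 KO and double-KO cells 0 were called by edgeR, and 8 and 10 passed the adjusted p alone. In CD33 KO cells 5 passed it as higher and 5 as lower. Over all tested genes 63.1%, 59.5% and 58.6% passed it in CD33 KO, CD123 KO and double-KO cells. The shares called there were 8.45%, 5.35% and 9.21%. DOK2 stood at log2 -1.02, -0.48 and -0.96 in these clones, ARRB2 at -0.79, -0.48 and -1.05, and INPP5D at 0.32, 0.07 and 0.65. The list's medians were -0.06, -0.11 and -0.12 in the 3 clones. PTPN6, which encodes SHP-1, stood at 819 ± 19.2 CPM in wt and 776 ± 13.7, 650 ± 30.5 and 692 ± 13.5 in CD33 KO, CD123 KO and double-KO cells (mean ± SD, n = 3), and PTPN11, which encodes SHP-2, at 210 ± 6.99, 229 ± 7.20, 194 ± 1.69 and 229 ± 6.11 (mean ± SD, n = 3).

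The adaptor of the activating receptors was low in 1 clone. FCER1G, the FcR gamma chain through which LILRA proteins signal, stood at 69.4 ± 3.19 CPM in wt, 115 ± 1.89 in CD33 KO cells and 92.4 ± 4.80 in CD123 KO cells (mean ± SD, n = 3). In double-KO cells it fell to 2.20 ± 0.229 CPM (mean ± SD, n = 3), or -4.99 on the log2 scale against wt (SE 0.08, edgeR adjusted p = 2.91e-25). CD33 KO cells thus had low LILRA1 with FCER1G above wt, and double-KO cells low LILRA1 with low FCER1G. The related adaptor TYROBP fell in both clones with CD33 edited, from 27.3 ± 2.35 CPM to 0.744 ± 0.168 and 0.398 ± 0.144 (mean ± SD, n = 3), and stood at 30.1 ± 1.33 in CD123 KO cells. Of the 11 adaptors and kinases tested, 2 fell in CD33 KO cells (TYROBP and the kinase FGR, log2 -1.99) and 3 in double-KO cells (FCER1G, TYROBP and the signalling scaffold CARD9, log2 -3.29), none rose, and 0 were called in CD123 KO cells by edgeR, where 9 passed the adjusted p alone. Their medians were -0.24, 0.15 and -0.29 in CD33 KO, CD123 KO and double-KO cells. Of all tested genes 1.96%, 2.62% and 1.86% rose and 6.5%, 2.73% and 7.36% fell in these clones in turn. In CD123 KO cells 59.5% of all tested genes passed the adjusted p alone.

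Genes of monocytic maturation and marker genes of other cell types were followed beside the receptors. Of 15 tested monocytic genes 8 fell and 0 rose in CD33 KO cells, where 6.5% of all tested genes fell and 1.96% rose. Those that fell included CD36, CX3CR1 and CD14 (log2 -2.79, -4.0 and -3.85), and the list median was -1.78. By the edgeR adjusted p alone 9 were lower and 6 higher, among the latter CD68, LYZ and FCGR1A (log2 1.17, 0.85 and 0.81). In double-KO cells 5 fell and 3 rose (median -0.57), with CX3CR1 lower (log2 -2.93) and S100A9 and S100A8 higher (3.04 and 2.44). In CD123 KO cells 3 rose, S100A8, S100A9 and LYZ (3.60, 3.73 and 3.26), and CX3CR1 fell (-1.64), with a median of 0.58. LYZ, which encodes lysozyme, made up 170 CPM of the list in wt and 1624 in CD123 KO cells. The summed level of all 16 monocytic genes was 590 to 626 CPM in wt, 918 to 956 in the CD33 KO, 2202 to 2406 in the CD123 KO and 1290 to 1404 in the double-KO libraries. The 5 B cell markers summed to 1.27 to 1.83 CPM in wt, 0.834 to 1.33 in CD123 KO cells, 0.0504 to 0.235 in CD33 KO cells and 0.0866 to 0.120 in double-KO cells. The NK cell list, of which only NCAM1 exceeded 1 CPM, summed to 238 to 247 CPM in wt, 343 to 364 in CD33 KO cells, 281 to 323 in CD123 KO cells and 175 to 178 in double-KO cells. The part of these lists in the receptor changes was not tested, and in bulk RNA fewer cells of a kind and less RNA per cell cannot be told apart. Of 10 tested myeloid transcription factors 1 rose and 1 fell in CD33 KO cells. In CD123 KO cells 2 rose and 0 fell, and in double-KO cells 2 rose and 1 fell. Of all tested genes 1.96%, 2.62% and 1.86% rose and 6.5%, 2.73% and 7.36% fell in CD33 KO, CD123 KO and double-KO cells. EGR2 rose in all 3 clones (log2 2.42, 3.79 and 2.16), and CEBPE rose in CD123 KO and double-KO cells (2.01 and 1.66). The list's medians were 0.66, 0.27 and 0.52. SPI1, which encodes PU.1, was not called in any clone (-0.01, 0.12 and -0.06).

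Genes with profiles most like those of the receptors were taken for LILRA2 and LILRB4, the 2 members with the widest range of group means among those reaching 5 CPM. Over the 12 libraries, which fall into 4 groups, the genes closest to LILRA2 by Pearson's r of log2 CPM were ELF1 (0.993), DCHS1 (0.993), RHOBTB2 (0.992), EXTL3 (0.989) and SGPL1 (0.989). ELF1, an ETS-family transcription factor, stood at 226 CPM in wt and 126, 155 and 116 in CD33 KO, CD123 KO and double-KO cells, the same order as LILRA2. Among the closest to LILRB4 were CRISPLD2 (0.989), VIM (0.988), MPZL1 (0.978) and UBE2L6 (0.978). VIM, the intermediate filament vimentin, stood at 700 CPM in wt and 658, 514 and 502 in the clones in the same order. None of these genes lies on chromosome 19, and with 4 groups r rests mainly on the order and spacing of 4 group means.

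Non-additivity was tested as the log2 change with CD33 editing in CD123-edited cells minus that in CD123-intact cells. By edgeR 0 members were called in it, where 6.1% of all tested genes were. By the adjusted p alone 2 members passed, both above 0, where 49.3% of all tested genes passed and 24.6% were above 0. LILRA2 changed by -0.72 with CD33 editing next to CD123 editing and by -1.39 without it, a difference of 0.67 (SE 0.13, edgeR adjusted p = 9.29e-05). LAIR1 changed by -0.05 and -0.39, a difference of 0.34 (SE 0.06, edgeR adjusted p = 1.71e-05). For LILRB1 the difference was -0.35, with a 95% interval of -1.76 to 1.05, and for LILRA1 -0.08, with an interval of -1.12 to 0.97. For LILRB2 it was 1.67 (-0.44 to 3.79, edgeR adjusted p = 0.182) and for LILRB4 0.13 (0.01 to 0.25, edgeR adjusted p = 0.0581, and 0.0483 with RLE scaling). With library-size scaling the LILRB4 value was 0.17 (edgeR adjusted p = 0.0136). Another setting took its adjusted p further above 0.05, so whether LILRB4 passes depends on the setting. Because each genotype is 1 clone, a difference between clones of 1 genotype would enter these values and cannot be told apart from the edits.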

How the data were processed

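The authors deposited whole-number counts for each gene and library, not normalized, beside each gene's summed exon length. HISAT2, hg19, featureCounts and edgeR are named in the submitters' processing notes. No version is given there for them, nor the strand and multimapping settings. Grouping followed the genotype labels, which record no batch.

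One edgeR 4.0.16 fit (R 4.3.3, filterByExpr, TMM, robust quasi-likelihood F-test) covered all 12 libraries, and Benjamini-Hochberg adjustment ran over 14010 genes in each of 7 comparisons. The call thresholds are those the series design names. Dispersion across genes corresponded to a coefficient of variation of 5.41%. An SE is the log2 change divided by the root of F. RPKM is CPM divided by the deposited length in kb. The procedure was tested on simulated data.

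The text gives every member, for each list its counts and up to 4 called genes per clone with further examples, and the 5 genes most like each of 2 members, except items that are not reported here. The members and lists were chosen with earlier results of these data known. Alternatives were RLE and library-size scaling, no filter, a filter of 1 CPM in 3 libraries, DESeq2 1.42.0, limma-voom (limma 3.58.1), a fit of the compared groups, LILRA6 and LILRB3 summed, and each library left out in turn. Positions in hg19 (from the table) and in GRCh38.p14 (from RefSeq) were kept apart. No protein sequence was used here.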

Additional observations from a re-analysis of the deposited data

Results flagged for a closer look

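The change with CD33 editing differed between cells with and without CD123 edited for 2 members, by a test of the difference itself. For LILRA2 the log2 change in the CD123-edited background was 0.67 above that in the CD123-intact background (edgeR adjusted p = 9.29e-05). For LAIR1 it was 0.34 above it (edgeR adjusted p = 1.71e-05). Both were below the fold threshold of 1.5, and 49.3% of all tested genes passed the adjusted p alone in this comparison. Each value rests on 4 groups of which 3 are single clones. Leaving out 1 library in turn gave 0.57 to 0.77 for LILRA2 and 0.29 to 0.37 for LAIR1.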

How the results depend on the processing

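No paired analysis was possible because the labels number the libraries in 1 series and share no replicate number between groups. The count of members called against wt stayed within 1.5 times of its main value under every alternative, with 2 to 4 in CD33 KO cells (main 3), 1 in CD123 KO cells and 3 to 4 in double-KO cells (main 4), as did the count of all genes called in each of the 7 comparisons. Between double-KO and CD33 KO cells 1 member was called, 2 with limma-voom, 0 in a fit of the compared groups, and 0 to 2 with a library left out: LILRB1 was lost without double-KO library 1 and missed the filter in the fit of the compared groups, and LILRB2 was added without CD33 KO library 1 (log2 4.81) and with limma-voom (2.29). Between CD33 KO and CD123 KO cells 2 were called, and 3 with library-size scaling, where LILRB1 was added (log2 -1.503). The filter of 1 CPM in 3 libraries, under which LILRB2 is not tested, gave 1. With a library left out 2 to 3 were called. In the test of non-additivity 0 were called, 1 with limma-voom and 0 to 1 with a library left out, the 1 being LILRB2. The signs that turned were of differences that had not passed. LILRB4 between the clones with CD123 edited stood at -0.067 with library-size scaling, -0.0042 with the 1 CPM filter, -0.0017 in a fit of the compared groups and at -0.022 (without CD123 KO library 3) to 0.047 with a library left out. With a library left out, non-additivity of LILRA1 ran from -1.09 to 0.20, turning to 0.16 without CD33 KO library 1 and to 0.19 and 0.20 without double-KO library 2 and 3, and that of LILRB1 ran from -2.05 to 0.36, turning without double-KO library 1. The cause was not tested. Where a library left out leaves 2 in a group, the spread is that of the shared fit. With LILRA6 and LILRB3 summed, their 74 counts over all libraries still did not pass the filter. Depth limits LILRA1, LILRB1 and LILRB2 most in double-KO cells, with 7, 5 and 6 counts over its libraries.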
